A study of Mus musculus with 27 samples.

Results

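The transcripts of complex I, the enzyme through which NADH feeds electrons into the mitochondrial respiratory chain, were followed in mouse hearts through 41 nuclear genes of 57683 counted features. The genes were taken by name alone: each carries a symbol made of Nduf, then a, b, c, s, v, ab or af, then a number. By role they are 7 core subunits of the matrix arm, 9 accessory subunits of the matrix arm, 19 accessory subunits of the membrane arm, the acyl carrier protein Ndufab1, the 4 assembly factors Ndufaf1 to Ndufaf4, and Ndufa4, which keeps a complex I name but is now assigned to complex IV. Ndufaf5 to Ndufaf8 are listed under older clone names, so the name rule did not take them in. Values of Ndufaf5 and Ndufaf7 are given separately, while Ndufaf6 and Ndufaf8 are not reported by themselves.

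Complex I is an L-shaped assembly. Its matrix arm binds NADH and flavin and passes electrons along iron-sulphur clusters to ubiquinone, and its membrane arm pumps protons. The core of the membrane arm is encoded by the mitochondrial genome (the mt-Nd genes), whereas all other subunits, the accessory subunits that surround the core and the assembly factors that build the enzyme without staying in it are encoded in the nucleus. Adult cardiomyocytes are densely packed with mitochondria and draw most of their ATP from oxidative phosphorylation, while the embryonic heart works at low oxygen and leans more on glycolysis.

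All animals were C57BL/6J mice, an inbred laboratory strain, and the labels name no engineered allele. Whole hearts came from 7 embryos at E13.5, of unknown sex; the age field of these libraries rises in small steps, and the stage was taken from their titles. Ventricular apexes, the tips of the ventricles, came from 6 unoperated males at 16 weeks of age, 6 unoperated males at 6 weeks, 4 animals at 12 weeks that had spent 4 weeks under pressure overload (TAC; 3 labelled male and 1 female), and 4 sham-operated males at 12 weeks. The comparison of E13.5 with adults therefore also sets whole hearts, atria included, against ventricular apexes. Because RNA was taken from whole tissue, fewer cells of a type and less RNA per cell cannot be told apart.

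Libraries held 7543375 to 12646039 counts in E13.5 hearts, 2164604 to 2642307 at 16 weeks, 2092270 to 2682955 at 6 weeks, 10411417 to 11846819 under TAC and 7958592 to 11561952 in sham hearts. The 41 genes took 0.383 to 0.467% of all counts in E13.5 hearts, 1.25 to 1.31% at 16 weeks, 1.28 to 1.37% at 6 weeks, 1.17 to 1.38% under TAC and 1.22 to 1.297% in sham hearts. In 8 adult libraries, 2 in each adult group, sex-linked transcripts went against the labelled sex. The unoperated adult libraries also used another quality encoding than the rest, per the labels. Levels are given as CPM, counts scaled to a common library size with TMM factors over all 27 libraries. Fold changes are log2 values from edgeR's quasi-likelihood test with their standard errors (SE), and a gene was called at a Benjamini-Hochberg adjusted p under 0.05 over all features tested.

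Set against each other per kb of exonic sequence that no other feature covers, the levels of the 41 genes differed widely. Ndufb9, Ndufa4 and Ndufb8 took the first 3 places in every group, and Ndufa13, a membrane-arm subunit, the next. Ndufb8 and Ndufb9, both accessory subunits of the distal membrane arm, stood at 234 ± 33.4 and 213 ± 29.0 CPM per kb in E13.5 hearts (SD, n = 7). At 16 weeks they stood at 1158 ± 55.5 and 1256 ± 44.4 CPM per kb, and at 6 weeks at 1246 ± 52.9 and 1348 ± 72.9 CPM per kb (SD, n = 6 each). In E13.5 hearts these values differed by less than their SDs. Ndufaf4 was near the bottom, at 0.316 ± 0.161 CPM per kb in E13.5 hearts, 1.16 ± 0.254 at 16 weeks and 1.18 ± 0.775 at 6 weeks. Ndufs6, a zinc-binding accessory subunit of the matrix arm, had at most 2 counts in any heart and could not be tested. Only 36.6% of its exonic bases lie outside other listed features, the smallest share among the 41 genes. How reads in shared bases were counted is not given in the sources used here, so its low counts are not read as low expression. The same limit bears on the low levels of Ndufab1, Ndufb2, Ndufaf4 and Ndufaf2, with 57.6, 72.6, 73.6 and 74.8% of exonic bases outside other features.

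**Figure D1:**
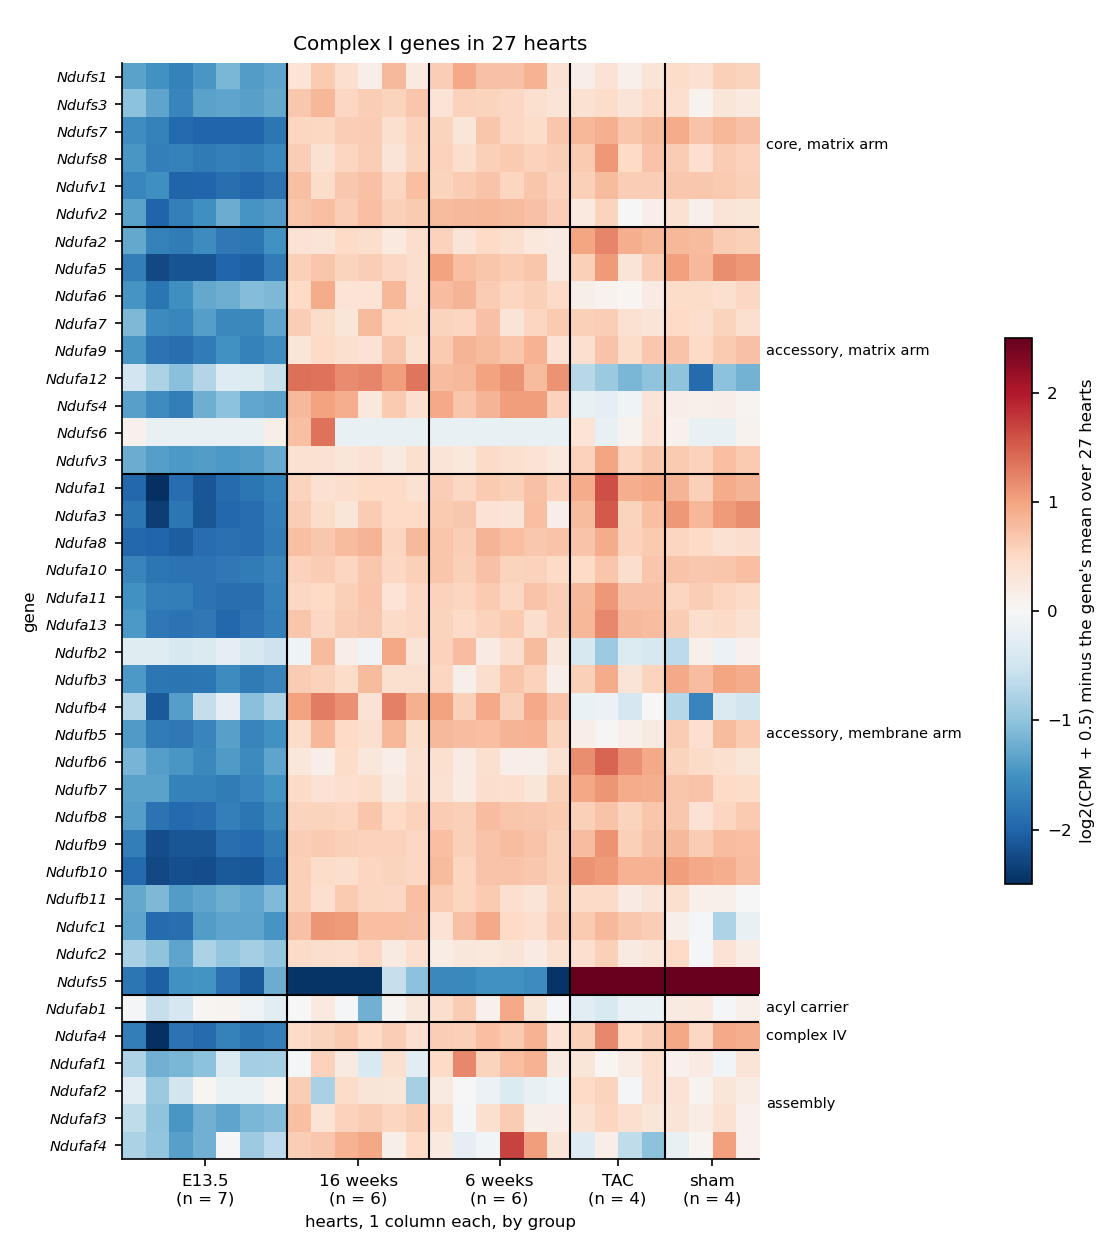
Levels of 40 of the 41 complex I genes (rows, by role) in 27 hearts (columns, by group), as log2(CPM + 0.5) minus each gene's mean over all hearts; the colour scale ends at 2.5 in either direction. The 7 E13.5 columns are blue in nearly every row, Ndufs5 and Ndufa12 differ between the unoperated and the operated adults, and Ndufs6 rests on at most 2 counts per heart.

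Complex I transcripts were lower in the embryonic heart than in unoperated adult hearts almost throughout. Of the 38 genes with enough counts to test, 37 fell and none rose, beside 39.7% of all features tested that fell, 44.1% that rose and 83.8% called either way. The median log2 fold change of the 38 was -2.21, against 0.07 over all features. In 35 of the 38 the groups did not overlap, beside 26.3% of all features, and 35 were at least 2-fold lower, beside 20.9%. The summed level of the 41 genes was 2956 ± 235 CPM in E13.5 hearts (SD, n = 7), against 14047 ± 288 CPM at 16 weeks and 14388 ± 498 CPM at 6 weeks (SD, n = 6 each), which is 4.81-fold lower in E13.5 hearts than over the mean of both adult ages. This direction was already known from earlier results on respiratory-chain genes in these hearts and is not an independent observation.

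All 7 core subunits of the matrix arm fell. Ndufv1, which binds flavin and NADH, had 184 CPM in the lowest, 198 in the median and 254 in the highest E13.5 heart. The same gene had 1015, 1195 and 1244 CPM at 16 weeks and 1076, 1125 and 1215 CPM at 6 weeks. Every E13.5 heart lay far below every adult heart, with a log2 fold change of -2.47 ± 0.07 (adjusted p = 8.04e-24). Ndufs7, the carrier of the last iron-sulphur cluster before ubiquinone, changed by -2.39 ± 0.07, and Ndufs8, another iron-sulphur subunit, by -2.22 ± 0.06. The electron-entry subunit Ndufv2 changed by -2.24 ± 0.08. Ndufs1, the largest subunit of the matrix arm, changed by -2.0 ± 0.10, and Ndufs3 by -1.89 ± 0.07. For Ndufs3 the level was 23.6, 29.9 and 36.5 CPM in E13.5 hearts, against 108, 117 and 134 CPM at 16 weeks and 94.7, 104 and 112 CPM at 6 weeks.

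Among the accessory subunits of the matrix arm, all 8 tested genes fell, with a median of -2.01. The largest change was that of Ndufa5, with 47.7, 55.3 and 69.2 CPM in E13.5 hearts, against 313, 343 and 374 CPM at 16 weeks and 268, 372 and 461 CPM at 6 weeks. Its log2 fold change was -2.63 ± 0.09 (adjusted p = 1.98e-21). The smallest in this arm were those of Ndufa12 (-1.70 ± 0.09) and Ndufv3 (-1.72 ± 0.05). Ndufs4, whose loss in mice gives a widely used model of Leigh syndrome, changed by -2.17 ± 0.11.

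The accessory subunits of the membrane arm fell in all 18 genes tested, with a median of -2.30. Ndufb10 had the largest change of all 38 genes, with 89.9, 99.6 and 118 CPM in E13.5 hearts, against 582, 624.5 and 652 CPM at 16 weeks and 628, 698 and 747 CPM at 6 weeks. That is 6.48-fold lower in E13.5 hearts (log2 fold change -2.70 ± 0.06, adjusted p = 5.46e-26). Ndufa8, an intermembrane-space subunit, followed at -2.66 ± 0.06 (adjusted p = 4.81e-26), with 81.2, 90.3 and 101 CPM in E13.5 hearts, against 497, 583 and 616 CPM at 16 weeks and 522, 557 and 619 CPM at 6 weeks. The smallest changes in the arm were those of Ndufb2 (-0.88 ± 0.14) and Ndufc2 (-1.31 ± 0.07). Ndufb2 had a low CPM throughout, and 72.6% of its exonic bases lie outside other features. Its levels were 4.75, 5.35 and 5.98 CPM in E13.5 hearts, against 6.5, 8.41 and 14.1 CPM at 16 weeks and 8.23, 10.2 and 12.4 CPM at 6 weeks. Ndufa4, the complex IV subunit, changed by -2.48 ± 0.10.

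Of the 4 assembly factors named Ndufaf among the 41 genes, 2 fell, 1 did not pass and 1 was not tested. Ndufaf1, which helps to build the membrane arm, had 7.17, 9.32 and 13.47 CPM in E13.5 hearts, against 13.2, 18.5 and 26.0 CPM at 16 weeks and 20.3, 27.6 and 40.4 CPM at 6 weeks. Its highest E13.5 heart lay above the lowest heart at 16 weeks, and its log2 fold change was -1.33 ± 0.14 (adjusted p = 1.32e-09). Ndufaf3, which acts in early matrix-arm assembly, changed by -1.57 ± 0.10 (adjusted p = 1.08e-14). Ndufaf2, a late-acting factor related in sequence to Ndufa12, did not pass, with 3.5, 6.26 and 7.42 CPM in E13.5 hearts, against 3.80, 8.89 and 11.1 CPM at 16 weeks and 5.53, 6.49 and 8.32 CPM at 6 weeks (log2 fold change -0.28 ± 0.18, adjusted p = 0.147). Ndufaf4 had 6 to 22 counts per E13.5 library, against 5 to 9 at 16 weeks and 4 to 16 at 6 weeks, and was left out by the filter on low counts. Together the 4 factors made up 0.999 ± 0.0772% of the summed CPM of the 41 genes in E13.5 hearts, against 0.529 ± 0.0404% at 16 weeks and 0.524 ± 0.0549% at 6 weeks. No E13.5 heart overlapped an adult heart in this share. That assembly factors and subunits differ in their change was not tested.

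Ndufab1 serves both complex I and mitochondrial fatty acid synthesis as an acyl carrier, and 57.6% of its exonic bases lie outside other features. It had 6.03, 8.66 and 9.77 CPM in E13.5 hearts, against 3.77, 9.50 and 11.4 CPM at 16 weeks and 9.12, 12.2 and 18.4 CPM at 6 weeks. The groups overlapped, and the small change of -0.40 ± 0.15 (adjusted p = 0.0162) no longer passed against the 16-week hearts alone (-0.18, adjusted p = 0.396) or with upper-quartile scaling (-0.28, adjusted p = 0.0869). Across the 38 genes the fold change and the mean CPM had a Pearson r of -0.79 and a Spearman rho of -0.72 (n = 38 genes of the same libraries). The adult levels enter both the mean CPM and the fold change, so a negative coefficient can arise by construction. No link between abundance and the stage difference is read from it. Between the fold change and own exonic length the coefficients were 0.19 and 0.11.

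**Figure D2:**
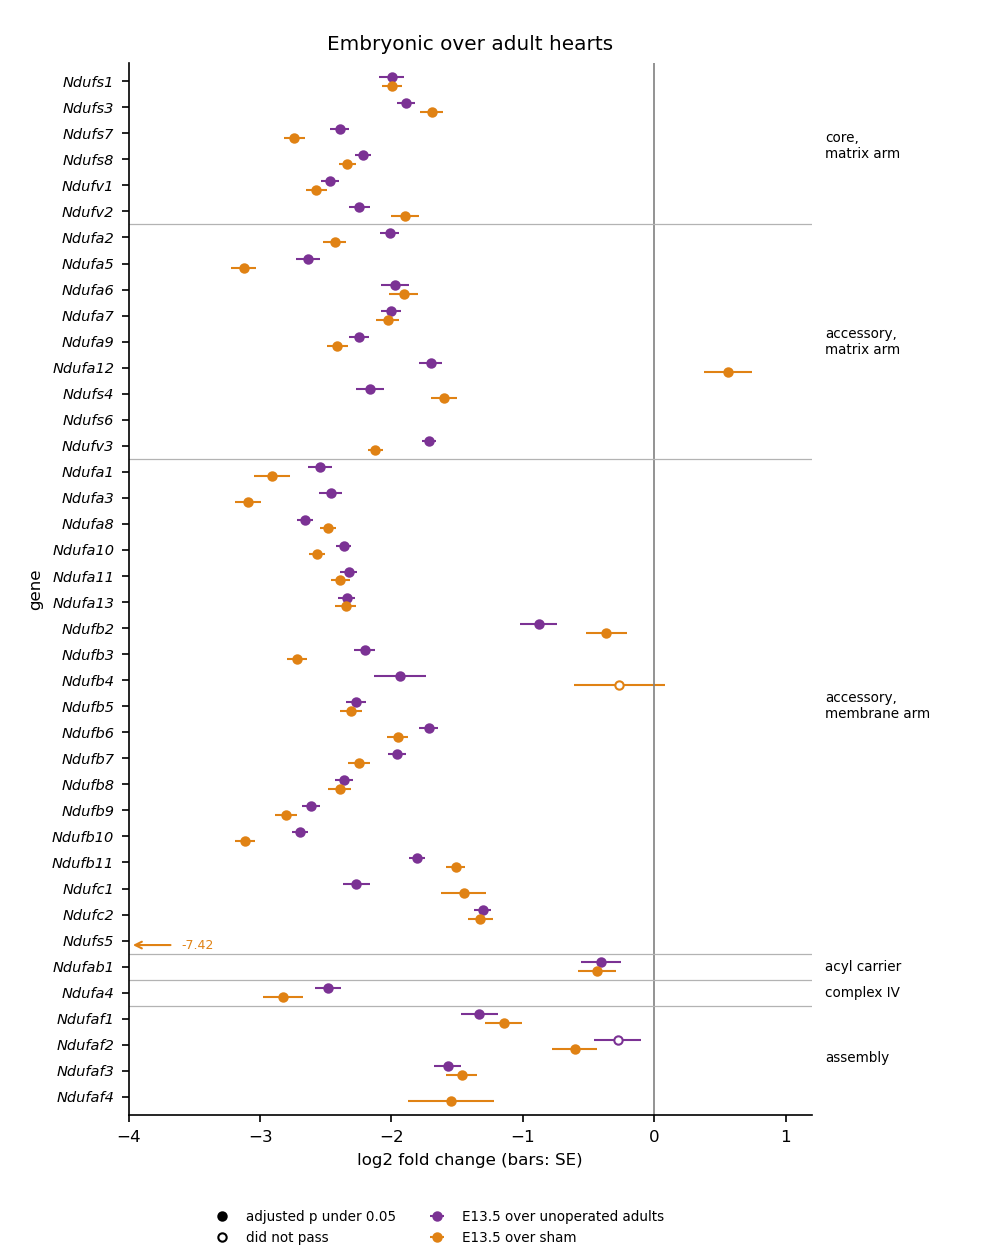
Log2 fold changes of complex I genes in E13.5 hearts over unoperated adults (purple) and over sham hearts (orange), by role, with bars for the SE and filled points for an adjusted p under 0.05. Most points lie between -1.5 and -3; among the purple points Ndufab1, Ndufaf2 and Ndufb2 lie nearest to 0, and the orange points of Ndufa12, Ndufb4 and Ndufs5 (arrow, -7.42) leave the pattern of the purple ones.

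Most other respiratory-chain genes tested were lower in E13.5 hearts as well, with exceptions in complexes III and IV. Of 10 assembly factors with other names, 10 fell (median -1.17), the largest being Ecsit at -2.13 ± 0.06 and the smallest Acad9 at -0.52 ± 0.08. Of the factors listed under clone names, Ndufaf5 changed by -0.95 ± 0.10 and Ndufaf7 by -0.76 ± 0.09. The mitochondrially encoded complex I genes fell in 5 of 5 tested, with a median of -2.39. Complex II fell in 6 of 6 tested genes (median -1.90), complex III in 7 of 8 (median -2.11) and complex V in 12 of 12 (median -1.96). Complex IV fell in 12 of 15 and rose in 3, namely Cox6a1 and Cox8a, the forms used outside striated muscle, and Cox6b2, a testis form. Other mitochondrial genes, such as citrate synthase and import and membrane proteins, fell in 11 and rose in 2 of 14, with a median of -1.25. Relative to the summed CPM of that list, the 41 genes stood at 1.32 ± 0.0613 in E13.5 hearts, against 2.19 ± 0.0641 at 16 weeks and 1.96 ± 0.138 at 6 weeks, with no overlap between E13.5 and adult hearts.

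Cardiomyocyte markers moved with complex I. All 10 listed markers fell (median -2.35), and their summed level was 24145 to 31905 CPM in E13.5 hearts, against 121517 to 146253 CPM at 16 weeks and 125011 to 141039 CPM at 6 weeks, 4.71-fold lower in E13.5 hearts. Expressed as a percentage of this marker sum, the 41 genes stood at 10.4 ± 0.796% in E13.5 hearts, 10.4 ± 0.629% at 16 weeks and 10.8 ± 0.244% at 6 weeks. These ranges overlapped. In sham hearts the percentage was 8.71 ± 0.629%, and under TAC 9.43 ± 0.471% (SD, n = 4 each). Sham hearts ran from 7.85 to 9.32% and E13.5 hearts from 8.89 to 11.2%, most of them above every sham heart. Over E13.5 hearts, the marker sum was 5.94-fold and that of the 41 genes 4.99-fold higher in sham hearts. The marker list includes Myh6 and Tnni3, which themselves change with maturation. Erythroid markers ran the other way, with a summed level of 14107 to 53826 CPM in E13.5 hearts, against 824 to 1491 CPM at 16 weeks and 389 to 899 CPM at 6 weeks, and 9 of 9 tested rose. Epicardial markers summed to 272 to 344 CPM in E13.5 hearts, against 14.4 to 27.8 CPM at 16 weeks and 11.6 to 23.8 CPM at 6 weeks. Atrial markers summed to 2575 to 3387 CPM in E13.5 hearts, against 659 to 1463 CPM at 16 weeks and 158 to 1106 CPM at 6 weeks, with 5 of 7 tested higher and 1 lower. The part of these cell types in the complex I result was not tested.

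**Figure D3:**
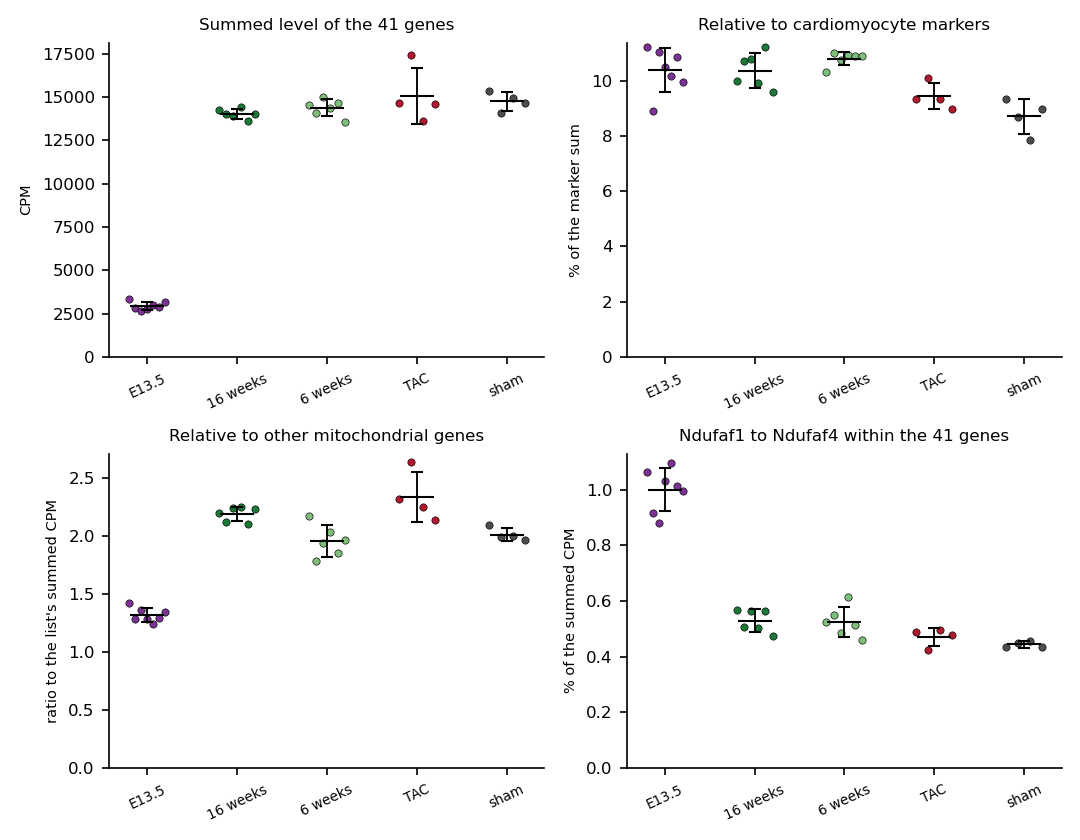
Summed level of the 41 genes in CPM, the same as a percentage of the summed cardiomyocyte markers and as a ratio to other mitochondrial genes, and the share of Ndufaf1 to Ndufaf4 within the 41 genes; each point is a heart, and bars show the mean ± SD. E13.5 hearts lie apart from adults in the level, in the ratio to mitochondrial genes and in the assembly share. In the percentage of cardiomyocyte markers their range overlaps that of every adult group, though most E13.5 hearts lie above the sham hearts.

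Regulators of mitochondrial gene expression did not move as a block in E13.5 hearts, with 9 of 14 tested lower and 3 higher. Perm1, a muscle regulator of oxidative metabolism listed as 2310042D19Rik, had 5.05 to 6.76 CPM in E13.5 hearts, against 624.7 to 706 CPM at 16 weeks and 547 to 659 CPM at 6 weeks (log2 fold change -6.75 ± 0.08). The nuclear receptor genes Ppara and Esrrb changed by -4.24 ± 0.11 and -2.41 ± 0.08. Nrf1, a factor that binds promoters of many respiratory-chain genes, was higher at 0.81 ± 0.08, as were Pprc1 (1.37 ± 0.08) and Yy1 (0.25 ± 0.07). Ppargc1a, the gene for the coactivator PGC-1alpha, had no count in the E13.5 libraries and at most 1.27 CPM in any adult heart, too few to test. Its counts are not read as low expression, since the counting mode is not given in the sources used here.

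Promoters of some of the genes hold letters that such factors are known to recognise. RefSeq windows on GRCm38.p6, from 250 bases before to 50 bases after the annotated start, were matched by symbol for 37 of the 41 genes and searched on both strands. The palindrome bound by NRF1, in capitals in the Ndufa11 sequence, lay in 2 of the 37 genes (5.4%) and in 1.1% of 27025 genes with a window. Its looser form with the sixth base free, which includes the first, lay in 8 (21.6%) and in 5.2% of all genes. The YY1 letters AANATGGCG lay in 7 (18.9%) and in 2.8% of all. The oestrogen-related receptor site TCAAGGTCA lay in none and in 0.5% of all, its shorter form AAGGTCA in 3 (8.1%) and in 5.4% of all, and the GABPA letters CCGGAAGT in 1 (2.7%) and in 4.3% of all. Member windows were richer in G and C than all windows, with a median of 59.3% against 52.7%, and their part in these shares was not tested. A match is a run of letters, not a shown site. The full palindrome lies 60 bases before the start in Ndufa11 and 113 bases before it in Ndufaf4. Ndufb4 holds the looser form in 3 places together with AAGGTCA. The 250 bases before the start of Ndufa11 and Ndufb4 are printed with these letters in capitals.
Ndufa11, chr17:56717512-56717761, plus strand: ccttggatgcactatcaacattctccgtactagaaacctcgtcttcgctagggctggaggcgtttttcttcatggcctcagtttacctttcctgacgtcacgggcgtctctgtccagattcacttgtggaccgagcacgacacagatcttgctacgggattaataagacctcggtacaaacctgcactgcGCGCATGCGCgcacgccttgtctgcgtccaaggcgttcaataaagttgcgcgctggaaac
Ndufb4, chr16:37654369-37654618, minus strand: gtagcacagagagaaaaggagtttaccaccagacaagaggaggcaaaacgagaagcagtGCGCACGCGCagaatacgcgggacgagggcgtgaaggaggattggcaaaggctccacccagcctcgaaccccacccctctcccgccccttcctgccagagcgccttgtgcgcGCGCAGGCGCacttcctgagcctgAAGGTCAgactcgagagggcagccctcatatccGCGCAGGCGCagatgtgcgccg

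The 7 genes with the YY1 letters carry them close to the start in 6 cases, 18 bases before it in Ndufa7 and 22 to 35 bases after it in Ndufa9, Ndufc1, Ndufs4, Ndufs6 and Ndufs7. In Ndufb11 they lie 211 bases before the start. The stretches around the letters are set side by side, with the motif in capitals and the sequence from RefSeq on GRCm38.p6. The capitals are alike by the choice of letters. They include ATG, and whether they overlap the start of translation was not tested. Its part in the share of genes with these letters was not tested either.
Ndufa7, chr17:33824617-33824646, plus strand: gagcggaaggAATATGGCGtccgctactcg
Ndufa9, chr6:126849096-126849125, minus strand: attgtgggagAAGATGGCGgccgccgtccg
Ndufb11, chrX:20617811-20617840, minus strand: tcaccaacacAAAATGGCGacgagaagaga
Ndufc1, chr3:51408914-51408943, minus strand: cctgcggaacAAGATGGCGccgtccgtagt
Ndufs4, chr13:114388045-114388069, minus strand: tgcctacaggAAGATGGCGgcggtc
Ndufs6, chr13:73328433-73328459, minus strand: ggtcaccggcAAGATGGCGgcggtgct
Ndufs7, chr10:80249463-80249492, plus strand: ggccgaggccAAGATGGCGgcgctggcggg

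The genes share little else in position. They lie on 16 chromosomes in the deposited mm9 annotation, and the nearest pair, Ndufs8 and Ndufv1 on chromosome 19, is 94747 bases apart. They are short, with a median of 908 exonic bases, against 2810 over 20031 protein-coding genes.

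Against sham hearts, which share the quality encoding and the depth range of the embryonic libraries, the same stage difference was seen in most genes. These values use the same E13.5 hearts as those above. Of 40 genes tested, 38 fell, 1 rose and 1 did not pass, beside 35.6% of all features that fell, 40.7% that rose and 76.3% called either way. The median was -2.28, against 0.12 over all features, and in 35 of 40 the groups did not overlap on the low side, beside 28% of all features; none was apart on the high side, beside 35.8%. At least 2-fold lower were 35, beside 19.9% of all features, and none was at least 2-fold higher, beside 25%. Ndufs5 is among the lower genes in each of these counts, though its change is not read as a stage effect below. The core subunits changed by -1.69 ± 0.09 (Ndufs3) to -2.74 ± 0.08 (Ndufs7). Ndufa5 (-3.12 ± 0.09) and Ndufb10 (-3.11 ± 0.08) again stood among the largest changes. All 4 assembly factors fell, Ndufaf4 by -1.55 ± 0.33, Ndufaf3 by -1.47 ± 0.12, Ndufaf1 by -1.15 ± 0.14 and Ndufaf2 by -0.61 ± 0.17 (adjusted p = 0.00314). Ndufb2 had a weak call (-0.36 ± 0.15, adjusted p = 0.0397) that was lost in 7 of the 11 fits with 1 heart left out.

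In a few genes the outcome depended on which adults served as the reference, and the unoperated and operated adults themselves stood apart. Ndufa12, an accessory subunit next to the ubiquinone-reducing core, had 47.3, 67.1 and 78.6 CPM in E13.5 hearts. It had 204, 241 and 258 CPM at 16 weeks and 170, 187 and 215 CPM at 6 weeks. In the operated adults it had 61.0, 51.7, 44.6 and 49.2 CPM under TAC and 49.2, 25.8, 48.1 and 43.3 CPM in sham hearts. E13.5 hearts were thus lower than the unoperated adults but higher than sham hearts (0.56 ± 0.18, adjusted p = 0.0157). That call was lost when the 2 sham hearts with mismatched sex transcripts were left out (0.38, adjusted p = 0.0755). Ndufb4 had 1.22, 3.84 and 5.73 CPM in E13.5 hearts, 8.96, 15.1 and 17.4 CPM at 16 weeks and 10.6, 12.7 and 14.3 CPM at 6 weeks. In sham hearts it had only 3.98, 1.84, 5.24 and 4.89 CPM. It fell by 1.93 on the log2 scale against unoperated adults (adjusted p = 4.12e-10) and did not pass against sham (-0.26 ± 0.35, adjusted p = 0.50).

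Ndufs5, an intermembrane-space subunit with a disulphide-rich fold, was nearly uncounted in 3 groups. It had 2 to 10 counts per E13.5 library, 0 to 3 at 16 weeks and 0 or 1 at 6 weeks, against 330 to 465 under TAC and 342 to 593 in sham hearts. In CPM, E13.5 hearts reached at most 0.651, while the 4 TAC hearts had 48.5, 49.5, 35.3 and 47.4 and the 4 sham hearts 51.1, 62.7, 52.7 and 60.5. The fitted fold change of -7.42 ± 0.17 against sham rests on these few embryonic counts. Of its exonic bases, 81.5% lie outside other features. The low counts span both quality encodings and both depth ranges, since E13.5 libraries resemble sham libraries in each. Neither low nor high counts of Ndufs5 are read here as a stage effect.

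Pressure overload left the overall level of complex I transcripts within the spread of the hearts, with changes in single genes in both directions. The 41 genes summed to 14651, 17416, 13632 and 14611 CPM in the 4 TAC hearts, against 15342, 14072, 14957 and 14648 CPM in the 4 sham hearts. TAC replicate 2 stood above all others. Of 40 genes tested, 7 rose, 7 fell and 26 did not pass, beside 19.6% of all features that rose and 18.4% that fell. The share called was near the 38% of all features called either way. The median was 0.01, against 0.00 over all features, and no called gene changed by 2-fold, beside 2.97% of all features higher and 4.41% lower by that much.

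Of the 19 accessory subunits of the membrane arm tested, 6 rose (Ndufc1, Ndufb6, Ndufa13, Ndufb7, Ndufa11 and Ndufa8), 3 fell and 10 did not pass. Ndufa2 of the matrix arm rose as well. Ndufc1 had 92.1, 104, 93.5 and 89.5 CPM in TAC hearts, against 64.9, 56.9, 34.2 and 51.8 CPM in sham hearts. All TAC hearts were above all sham hearts, by a log2 fold change of 0.82 ± 0.16 (adjusted p = 0.00294). Unoperated hearts had 75.7 to 127 CPM and overlapped the TAC hearts. Ndufb6 had 209, 258, 207 and 180 CPM in TAC hearts, against 138, 131, 123 and 115 CPM in sham hearts, with a log2 fold change of 0.71 ± 0.10 (adjusted p = 8.03e-05). Here the TAC hearts stood above every heart of the other 4 groups. Ndufa13, also known as the cell-death regulator GRIM-19, had 490, 629, 481 and 465 CPM in TAC hearts, against 425, 370, 384 and 358 CPM in sham hearts (0.38 ± 0.09, adjusted p = 0.00433). Ndufb7 changed by 0.34 ± 0.08, Ndufa11 by 0.27 ± 0.08, Ndufa2 by 0.24 ± 0.09 and Ndufa8 by 0.21 ± 0.08. These 7 were the only ones of the 40 genes tested whose groups did not overlap on the high side. That share was no larger than the 21.3% of all features, called or not.

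The genes that fell included Ndufs1 of the electron path, which had 418, 478, 409 and 466.5 CPM in TAC hearts, against 512, 489, 563 and 549 CPM in sham hearts (-0.30 ± 0.07, adjusted p = 0.00435). The TAC hearts were lower than every sham heart. Of the 7 core subunits, 2 fell and 5 did not pass, with log2 fold changes of -0.07 ± 0.10 (Ndufv2), -0.04 ± 0.07 (Ndufv1), -0.04 ± 0.07 (Ndufs7), 0.10 ± 0.08 (Ndufs3) and 0.15 ± 0.10 (Ndufs8). Ndufb5 of the membrane arm had the largest called decrease, with 236, 214, 228 and 243 CPM in TAC hearts, against 324, 279, 363 and 331 CPM in sham hearts (-0.53 ± 0.08, adjusted p = 9.16e-05). Ndufa6, an LYR-motif subunit that binds the acyl carrier protein, had 115, 110, 108 and 119 CPM in TAC hearts, against 143, 142, 137 and 148 CPM in sham hearts (-0.38 ± 0.06, adjusted p = 0.000257). Ndufab1 itself had 7.68, 7.02, 8.25 and 8.22 CPM in TAC hearts, against 10.9, 11.02, 9.09 and 10.2 CPM in sham hearts (-0.45 ± 0.13, adjusted p = 0.0153). Ndufs5 (-0.37 ± 0.10) and Ndufb3 (-0.34 ± 0.10) fell as well, but neither passed without the libraries whose sex transcripts were mismatched (-0.23, adjusted p = 0.0948 for Ndufs5 and -0.22, adjusted p = 0.0947 for Ndufb3). On the low side the groups did not overlap in 6 of the 40 genes tested, a share near the 14.4% of all features. These 6 were the genes called lower except Ndufb3.

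**Figure D4:**
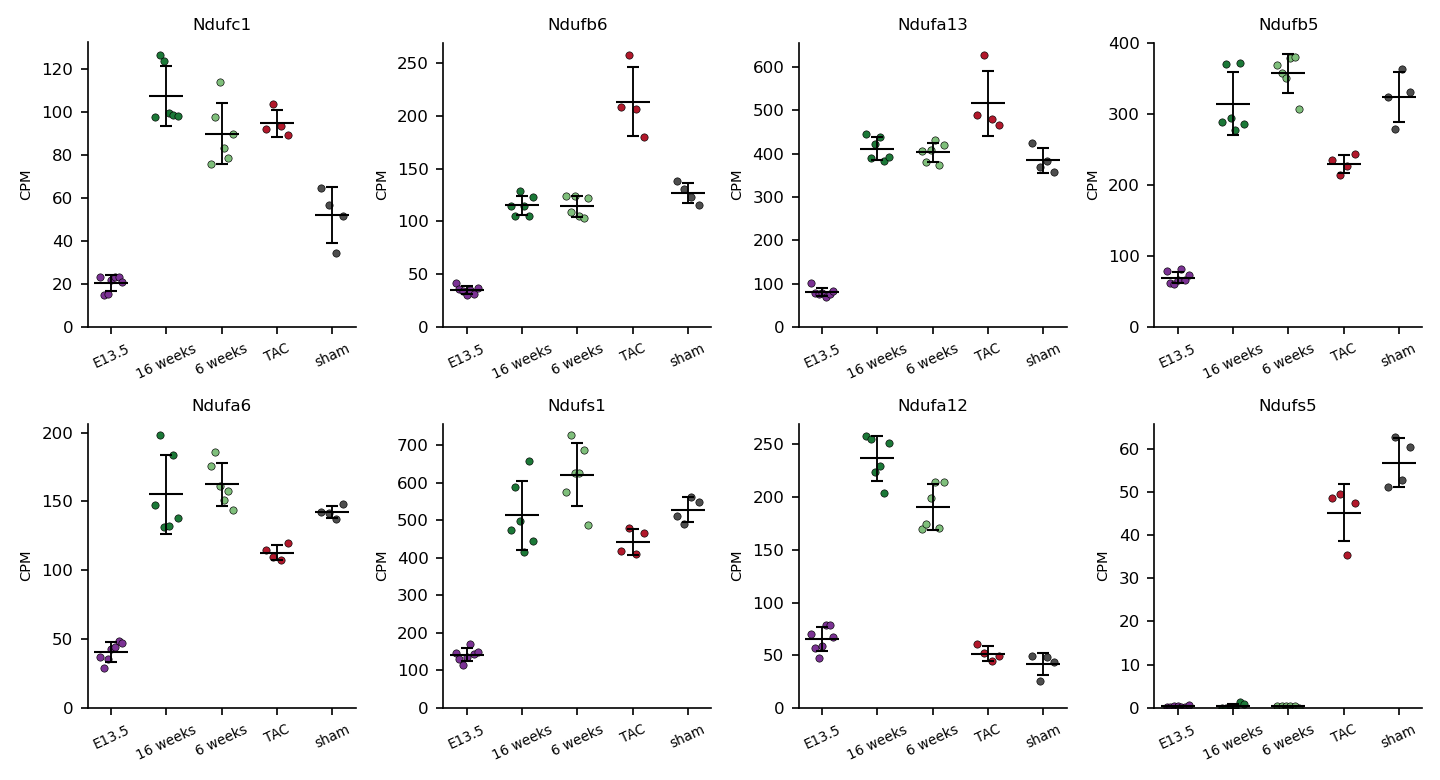
Level in CPM of 8 complex I genes in every heart (points) with the group mean ± SD (bars). TAC hearts lie above all sham hearts for Ndufc1, Ndufb6 and Ndufa13 and below all for Ndufb5, Ndufa6, Ndufs1 and Ndufs5; Ndufa12 and Ndufs5 differ between unoperated and operated adults.

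No assembly factor passed under TAC. Ndufaf1 changed by 0.05 ± 0.11, Ndufaf2 by 0.10 ± 0.15, Ndufaf3 by 0.12 ± 0.09 and Ndufaf4 by -0.89 ± 0.37 (adjusted p = 0.0701), and none of 10 assembly factors with other names passed. Complex II had 1 gene higher and 1 lower of 7, complex III none higher and 4 lower of 9, complex IV 2 higher and 2 lower of 15, and complex V 4 higher and 3 lower of 13. Ndufa4l2, a paralog of Ndufa4 that the name rule left out, was higher at 0.43 ± 0.09 (adjusted p = 0.0022). Its parent gene Ndufa4 did not pass (-0.13 ± 0.18), with 608, 927, 568.2 and 614 CPM in TAC hearts, against 788, 574, 775 and 756 CPM in sham hearts. The mitochondrially encoded complex I genes fell in 6 of 6 tested (median -1.99), but their summed level in sham hearts ran from 12231 to 52835 CPM, and the lowest sham heart lay inside the TAC range of 10144 to 14781 CPM.

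Single libraries bore on part of the TAC result. TAC replicate 2 had the highest level of the 8 operated hearts in Ndufa1, Ndufa3, Ndufa4, Ndufa13 and Ndufv1. Without it, 5 genes rose and 12 fell. Ndufa2 and Ndufa8 were lost, and Ndufa3, Ndufa4, Ndufa5, Ndufa10 and Ndufaf4 were added on the low side. Over the 8 fits without 1 heart, 2367 to 2840 features rose and 2153 to 2728 fell. With all hearts these were 2848 and 2681 of 14555. Ndufa2 and Ndufa8 were also lost without TAC replicate 1, sham replicate 3 or sham replicate 4, and Ndufb3 without TAC replicate 4, sham replicate 1 or sham replicate 3. Ndufc1, Ndufb6, Ndufa13, Ndufb7, Ndufa11, Ndufb5, Ndufa6, Ndufab1, Ndufs1 and Ndufs5 passed in each of these 8 fits. With all 27 libraries in 1 fit, however, Ndufs1 (adjusted p = 0.0998), Ndufab1 (adjusted p = 0.0901) and Ndufs5 (adjusted p = 0.0618) no longer passed, and without the filter on low counts Ndufab1 did not (adjusted p = 0.0661). Fibroblast markers summed to 2603 to 5139 CPM in TAC hearts, against 1256 to 1394 CPM in sham hearts, and macrophage markers to 742 to 1054 CPM, against 539 to 603 CPM. Cardiomyocyte markers summed to 146038 to 172629 CPM in TAC hearts, against 162213 to 190497 CPM in sham hearts. Atrial markers, a list that includes Nppa, summed to 2534 to 3963 CPM in TAC hearts, against 251.4 to 304.1 CPM in sham hearts, with 2 of 5 tested higher. The median log2 fold change of the 5 was 0.32 and the largest 3.77, so the summed rise was not shared by the list. It is not read here as a share of atrial tissue. The part of all these markers in the complex I result was not tested.

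**Figure D5:**
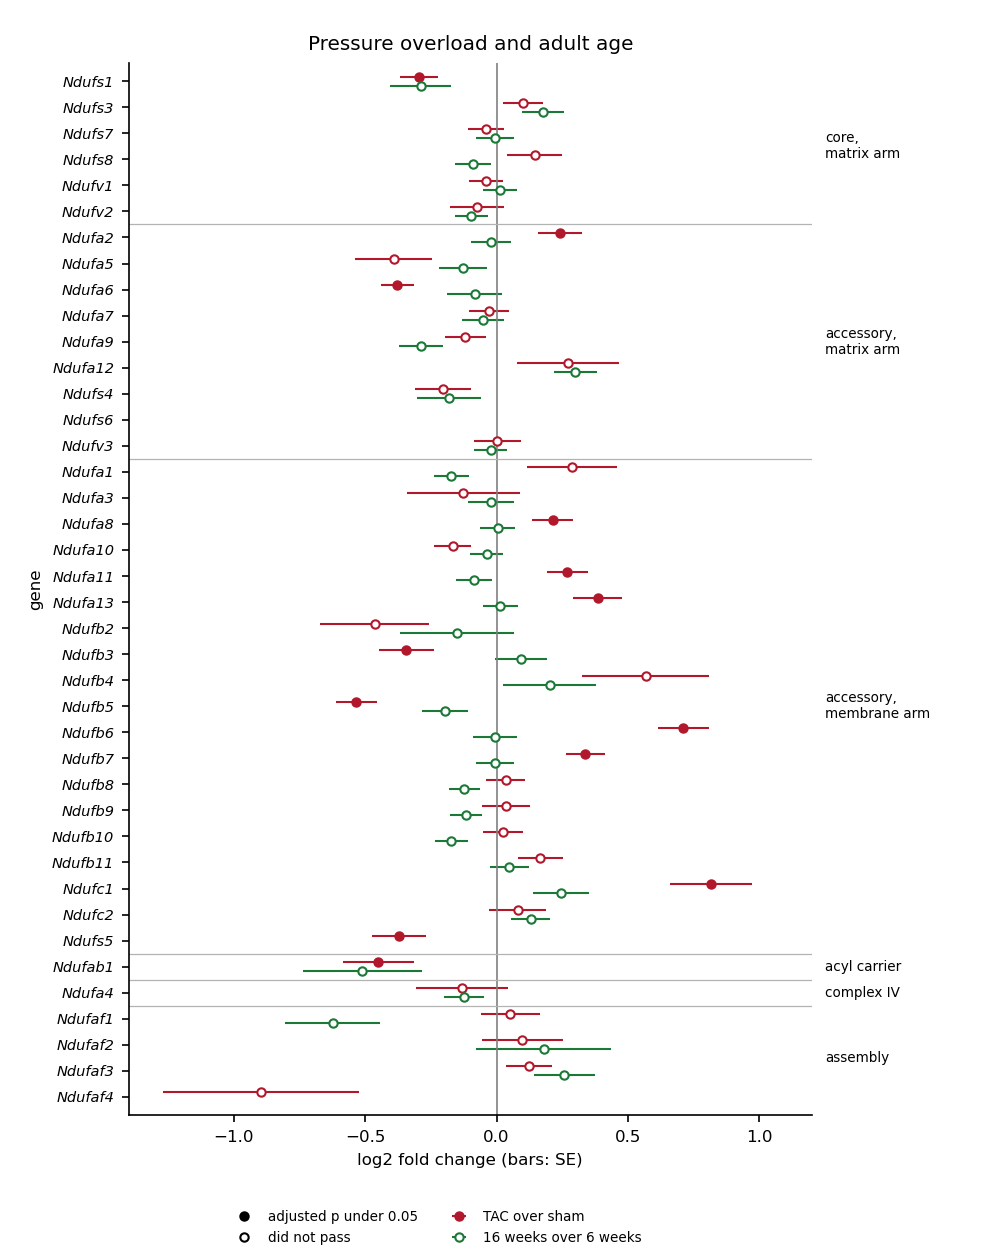
Log2 fold changes of complex I genes in TAC over sham hearts (red) and in 16-week over 6-week hearts (green), by role, with bars for the SE and filled points for an adjusted p under 0.05. Called TAC changes fall on both sides of 0 and stay within 1 log2 unit, and no green point is filled.

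The changes under TAC did not line up with those between stages. Over the 38 genes with a value in both, the fold change of TAC over sham and that of E13.5 over unoperated adults, which share no heart, had a Pearson r of -0.08 and a Spearman rho of 0.10. Of the 14 genes called under TAC, 13 had also been called lower in E13.5 hearts than in unoperated adults, Ndufb6 and Ndufb5 among them. Ndufs5 was not tested there. Since 37 of the 38 genes tested between stages were called lower, beside 39.7% of all features, nearly any choice of them would give such a count. No link between the 2 comparisons is read from it. With own exonic length the TAC changes had r = -0.30 and rho = -0.32 over 40 genes, the shorter genes tending to be higher.

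Between 16 and 6 weeks no complex I gene was called by edgeR, of 38 tested, beside 1.31% of all features higher and 1.19% lower. At an unadjusted p under 0.05 there were 12 genes, 5 higher and 7 lower, beside 8.51% of all features higher and 8.38% lower. DESeq2 called 1 gene higher, Ndufa12, and none lower, beside 1.7% and 1.61% of all features. Ndufa12 came nearest, with 204, 241 and 258 CPM at 16 weeks, against 170, 187 and 215 CPM at 6 weeks (0.30 ± 0.08, adjusted p = 0.0511). Ndufaf1 had 13.2, 18.5 and 26.0 CPM at 16 weeks, against 20.3, 27.6 and 40.4 CPM at 6 weeks (-0.62 ± 0.18, adjusted p = 0.0668), and Ndufa9 changed by -0.29 ± 0.08 (adjusted p = 0.0668). Ndufa12 was called when 6-week replicate 4, 6-week replicate 6 or 16-week replicate 5 was left out, Ndufa9 without either of the last 2, Ndufaf1 without 6-week replicate 6 or 16-week replicate 2, and Ndufs1 without 16-week replicate 5. The hearts of both ages overlapped in every one of the 38 genes, beside 1.36% of all features apart on the high side and 0.693% on the low side. In 35 of the 38 the fold change was under 0.3 in size, and the median was -0.03. The core subunits lay between -0.29 ± 0.12 (Ndufs1) and 0.18 ± 0.08 (Ndufs3).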

How the data were processed

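The deposited files hold raw read counts per feature, made by the authors. The submitters' processing notes list Bowtie, TopHat 1.3.0, HTSeq, DESeq and edgeR with the builds mm9 and NCBIM37, in no stated order or role. Libraries were non-stranded and single-end, per the labels' protocols, so overlapping features on either strand cannot be told apart. The counting mode is not given in the sources used here. The 27 sample files equalled the series table, and summed counts equalled the total line, which was left out.

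Counts were analysed in R 4.3.3 with edgeR 4.0.16 (limma 3.58.1): expression filter (minimum count 10, minimum total 15), TMM scaling, robust quasi-likelihood test and Benjamini-Hochberg adjustment over all features. DESeq2 1.42.0 was an alternative. CPM were computed from the deposited counts with TMM factors. The SE was derived by dividing the size of the log2 fold change by the root of its F statistic. The script was tested on simulated data. Figures used Python 3.11.15, numpy 2.4.6, pandas 2.3.3 and matplotlib 3.10.9.

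Genes, lists and tests were chosen with earlier results of these data known. Named genes were core subunits, assembly factors, Ndufa4, Ndufab1, the 3 largest called changes each way at a mean of at least 5 CPM, genes against the majority, genes that did not pass between stages, genes with few counts, and up to 3 genes of other lists; other genes were named after their values were seen. The design text counts hearts, so each library was taken as a separate heart. Ndufb1 was not analysed here. A gene that enters the counts, medians and sums is not reported here by itself.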

Additional observations from a re-analysis of the deposited data

Results flagged for a closer look

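In each of the 5 groups, the highest or lowest heart was checked for a gap to the others above Dixon's 95% critical value. This was done for those of the 41 genes with a mean of at least 5 CPM, which left out Ndufaf4 and Ndufs6. The summed levels of the 41 genes and of the assembly factors were checked as well. Of 205 such checks, 13 met it (6.34%), all for single genes, where chance gives about 1 in 20. TAC replicate 2 met it for 5 genes. Its Ndufa1 was 457 CPM, the other TAC hearts having 278.6 to 292.2 CPM. Its Ndufa13 was 628.7 CPM, the others having 465.4 to 489.6 CPM, its Ndufa4 was 927.4 CPM, the others having 568.2 to 613.7 CPM, and its Ndufv1 was 1279 CPM, the others having 1111 to 1124 CPM. Its Ndufb2 was lowest at 3.512 CPM, the others having 5.210 to 5.463 CPM.

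Ndufa4 also set apart sham replicate 2, at 574.2 CPM beside 755.6 to 788.1 CPM in the other sham hearts, and E13.5 replicate 2, at 65.43 CPM beside 105.7 to 123.4 CPM. Ndufs5 set apart TAC replicate 3, at 35.35 CPM beside 47.35 to 49.48 CPM, and 6-week replicate 6, at 0 CPM beside 0.396 to 0.4612 CPM, which is a difference of 1 count. Ndufs8 set apart E13.5 replicate 1, at 112.1 CPM beside 90.09 to 98.95 CPM, and 6-week replicate 2, at 414.6 CPM beside 457.4 to 481.5 CPM. Ndufab1 was 3.774 CPM in 16-week replicate 4, beside 8.938 to 11.40 CPM, and Ndufc2 was 120 CPM in 16-week replicate 5, beside 137.6 to 147.7 CPM.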

How the results depend on the processing

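In the comparison of E13.5 with unoperated adults, 37 complex I genes fell and none rose in each fit that left out 1 library. Upper-quartile scaling moved the median of all features there from 0.07 to 0.19 and that of the complex I genes from -2.21 to -2.09; against sham these were 0.12 to 0.28 and -2.28 to -2.12. Without the filter on low counts, 12197 features were higher in E13.5 than in unoperated adults, against 5631. Against sham, no gene was higher without the libraries against their sex label, and leaving out 1 library gave 37 or 38 lower genes and 1 higher. For TAC, leaving out 1 library gave 5 to 8 higher and 6 to 12 lower genes, beside 2367 to 2840 and 2153 to 2728 features. No filter gave 11 higher, all 27 libraries in 1 fit gave 3 lower, and leaving out TAC replicate 2 and sham replicate 2 together, chosen after seeing the data, gave 13 lower. Same-numbered TAC and sham hearts did not deviate together (correlations -0.0549 to 0.023 over 3 pairs). So few pairs cannot decide whether the numbers pair hearts. The highest such correlation in any comparison was 0.155, between 16 and 6 weeks. A replicate block for TAC was fitted on replicates 1 to 3 only, without replicate 4 of either group. That fit gave 4 higher (Ndufa13, Ndufb6, Ndufb7, Ndufc1) and 4 lower genes, and 1766 lower features, against 2681 with all hearts. Ndufa11 (adjusted p = 0.0512), Ndufs1 (0.0508) and Ndufab1 (0.0773) no longer passed in it. The block and the smaller number of hearts cannot be told apart there. With a replicate block, the age comparison gave 1 higher and 3 lower genes. Between ages, DESeq2 gave 1 higher gene, no filter 1 higher and 3 lower (219 and 289 features), all 27 libraries 1 lower (230 and 188 features), and leaving out the libraries against their sex label 64 and 70 features, against 136 and 124. Leaving out 1 library there gave 0 or 1 higher and 0 to 2 lower genes, and 58 to 207 and 55 to 171 features. The cause was not tested. Libraries of unoperated adults were the shallowest. Ndufaf4 and Ndufs5 were tested only in the comparisons with sham, and Ndufs6 in none.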
